A study of Mus musculus with 13 samples.

Results

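Glycolysis and the pentose phosphate pathway were followed through 35 genes, picked by name to cover each step from glucose uptake to lactate export, the entry of pyruvate into mitochondria and the pentose phosphate branch. All 35 were found among the 24417 named genes of the 2 count tables, and all 35 passed the filter on low counts in every fit. The libraries are bulk RNA-seq of sorted T cells from spleen and lymph node of C57BL/6 mice, in 2 experiments. In the first, male mice received 4-hydroxytamoxifen on postnatal day 14 and were analysed at day 21. Control Treg cells (n = 3) came from Foxp3DTR-GFP/yCd4creERT2 mice, in which the Foxp3 locus encodes a diphtheria toxin receptor fused to GFP. Rescued Treg cells (n = 3) came from Foxp3LSL/yCd4creERT2 mice, in which a loxP-flanked Thy1.1 reporter with a STOP cassette silences Foxp3 until the tamoxifen-activated Cre, driven in the CD4 lineage, removes it. Treg “wannabes” (n = 2) came from Foxp3LSL/yCd4wt mice, which carry no Cre, so that these cells express the Thy1.1 reporter but no Foxp3 protein. In the second experiment, female mice aged 9 to 11 weeks at analysis had received 4 doses of diphtheria toxin, the first 7 days and the last 1 day before. Resting wannabes (n = 3) came from Foxp3LSL/WTCd4wt females, which keep Treg cells with the other Foxp3 allele, and activated wannabes (n = 2) from Foxp3LSL/DTRCd4wt females, whose Treg cells carry the toxin receptor and are depleted by the toxin.

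Glycolysis splits glucose into pyruvate in the cytosol. T cells that are activated and divide are known to raise glucose uptake and to reduce much of the pyruvate to lactate, which monocarboxylate transporters carry out of the cell, while the pentose phosphate pathway branches off at glucose 6-phosphate and yields NADPH and ribose 5-phosphate. Pyruvate enters mitochondria through the pyruvate carrier and is oxidised by pyruvate dehydrogenase, which the pyruvate dehydrogenase kinases switch off. Hif1a encodes the oxygen-regulated subunit of the factor HIF-1, which binds the letters ACGTG or GCGTG upstream of many glycolytic genes, and Myc acts on many of the same genes through the E box CACGTG. Treg cells are known for a lower reliance on glycolysis than conventional effector T cells.

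Levels are given as CPM, the count of a gene relative to the library's total after scaling within each experiment by the TMM method, and the 2 experiments were not placed on one scale. A gene was called where edgeR's quasi-likelihood test gave a Benjamini-Hochberg adjusted p under 0.05 over all genes tested, and every adjusted p below comes from that test. A difference is on the log2 scale with its standard error (SE). Per the study's methods the male libraries were biological replicates and the female ones came from separate mice. The male libraries spread more widely than the female ones, with a common biological coefficient of variation of 0.510 against 0.171. Total counts lay between 25556783 and 36659638 per library. Foxp3 itself was at 167, 215 and 252 CPM in control Treg cells, 865, 909 and 1109 CPM in rescued Treg cells and 84.2 and 99.8 CPM in wannabes, and at 69.8, 67.3 and 75.1 CPM in resting and 52.8 and 58.2 CPM in activated wannabes. The summed level of the 3 T cell markers found, Cd3e, Cd3g and Cd4, was 1794 to 3201 CPM over all libraries. The 4 B cell markers summed to 10.0 to 44.1 CPM, the 6 myeloid markers to 62.1 to 137 CPM, the 3 NK markers to 0.417 to 9.58 CPM, the 4 erythroid markers found to 0.992 to 18.3 CPM and the 2 CD8 markers to 9.71 to 27.8 CPM. Markers at 0 throughout a group were Ms4a1 in control Treg cells, Csf1r and Ncr1 in wannabes, and Ncr1 also in control Treg cells and resting wannabes.

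Sequences upstream of 6 members are shown as examples of the patterns described below, and all 6 hold ACGTG or GCGTG. Pgk1, Ldha and Slc16a3 were lower in control Treg cells than in wannabes and higher in activated than in resting wannabes, Pdk1 and Pdk3 were higher in both Treg populations than in wannabes, and Ldhb was lower in rescued Treg cells than in both other male groups. The stretches are from RefSeq on GRCm38.p6, lie within the 250 bases before an annotated start, are written 5′ to 3′ on the strand of the gene and leave out annotated exons. Capitals mark ACGTG or GCGTG on either strand, so that CACGT and CACGC are the same letters read on the opposite strand, and CACGTG, which holds ACGTG on both strands, appears as 1 run. The positions are chrX:106186850-106187099 (plus strand) for Pgk1, chr7:46845554-46845803 (plus) for Ldha, chr11:120948817-120949052 (plus) for Slc16a3, chr2:71872974-71873223 (plus) for Pdk1, chrX:93832202-93832400 (minus) for Pdk3 and chr6:142507958-142508207 (minus) for Ldhb.
Pgk1: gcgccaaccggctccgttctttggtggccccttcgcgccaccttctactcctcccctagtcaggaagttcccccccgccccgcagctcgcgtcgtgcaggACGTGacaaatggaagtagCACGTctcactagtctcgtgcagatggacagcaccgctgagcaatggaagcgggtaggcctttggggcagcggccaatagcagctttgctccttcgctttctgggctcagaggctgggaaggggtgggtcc
Ldha: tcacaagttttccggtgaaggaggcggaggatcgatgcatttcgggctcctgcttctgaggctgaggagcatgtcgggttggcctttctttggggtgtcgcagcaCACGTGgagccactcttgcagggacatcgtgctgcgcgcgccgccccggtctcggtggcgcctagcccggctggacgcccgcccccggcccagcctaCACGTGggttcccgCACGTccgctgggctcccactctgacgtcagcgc
Slc16a3: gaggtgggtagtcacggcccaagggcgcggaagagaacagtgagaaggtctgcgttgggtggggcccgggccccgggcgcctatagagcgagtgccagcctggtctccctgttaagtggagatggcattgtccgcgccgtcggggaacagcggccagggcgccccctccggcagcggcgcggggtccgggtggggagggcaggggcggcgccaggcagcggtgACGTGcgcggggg
Pdk1: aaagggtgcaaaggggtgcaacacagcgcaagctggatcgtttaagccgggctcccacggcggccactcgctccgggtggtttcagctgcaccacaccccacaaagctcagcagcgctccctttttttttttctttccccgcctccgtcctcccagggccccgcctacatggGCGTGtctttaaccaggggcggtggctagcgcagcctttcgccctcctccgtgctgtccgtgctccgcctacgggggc
Pdk3: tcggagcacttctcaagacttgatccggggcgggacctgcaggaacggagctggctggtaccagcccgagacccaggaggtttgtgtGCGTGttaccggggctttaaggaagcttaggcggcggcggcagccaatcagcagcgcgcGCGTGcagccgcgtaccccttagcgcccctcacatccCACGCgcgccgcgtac
Ldhb: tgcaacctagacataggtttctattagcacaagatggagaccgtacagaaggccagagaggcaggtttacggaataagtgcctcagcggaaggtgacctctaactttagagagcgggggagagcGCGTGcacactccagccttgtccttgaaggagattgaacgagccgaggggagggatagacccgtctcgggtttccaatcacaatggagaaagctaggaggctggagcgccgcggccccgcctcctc
Promoter entries were found for 34 of the 35 members, with 50 windows, and not for Slc2a3. ACGTG or GCGTG stood in 39 of the 50 member windows (78.0%) and in 38.6% of the 32817 windows of all genes. By gene, 31 of 34 members had the letters in at least 1 window, against 41.5% of 26994 genes. Gpi1 and Tpi1, called in the same directions as Pgk1, Ldha and Slc16a3, had neither motif in their windows. A second window of Ldha, not shown, held GCGTG but not ACGTG, and a second window of Pdk1 held neither. ACGTG alone was in 34.0% of member windows and 16.6% of all windows, GCGTG in 58.0% and 28.1%, and CACGTG in 10.0% and 6.02%. The member windows were also richer in G and C, with a median of 60.8% against 52.4%, and both motifs hold a CG pair, so that base composition and the motif share move together here. The part of base composition was not tested, and a match of these letters is a description of the sequence only.

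Ldha, Pkm and Aldoa, which encode the muscle-type lactate dehydrogenase subunit, pyruvate kinase and aldolase A, were the most highly expressed members in every group when levels were divided by exon length. In control Treg cells they averaged 449.6, 269 and 166 CPM per kilobase, and in wannabes 678, 489.7 and 381 CPM per kilobase. The 3 genes together held 44.6% to 52.5% of the members' counts in each library. The lowest members per kilobase included Eno2 (2.02 CPM per kilobase), Pfkfb4 (1.55 CPM per kilobase) and Hk2 (0.610 CPM per kilobase) in control Treg cells. Reads of some members may not be unique to them, as 53.9% of the distinct 50-base words of Pgk1 transcripts also occur in transcripts of other genes, 36.2% of Pgam1, 26.3% of Mpc1, 26.0% of Eno1, 25.8% of Pkm, 25.1% of Gapdh and 21.0% of Ldhb. Exons of Mpc1, Pdha1, G6pdx and Gpi1 overlap exons of an opposite-strand gene over 23.1%, 16.1%, 13.6% and 11.5% of their length, and the strand setting of the counting is not given in the sources used here.

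The members together took a different share of the library in each group. They held 0.775%, 0.725% and 0.769% of all counts in control Treg cells, 0.854%, 0.907% and 0.918% in rescued Treg cells and 1.12% and 1.11% in wannabes. In the female experiment they held 0.588%, 0.644% and 0.605% in resting and 0.846% and 0.867% in activated wannabes. Within each experiment the groups did not overlap, with control Treg cells lowest, rescued Treg cells between and wannabes highest. No test was made of this share, as a few highly expressed genes set it.

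**Figure D1:**
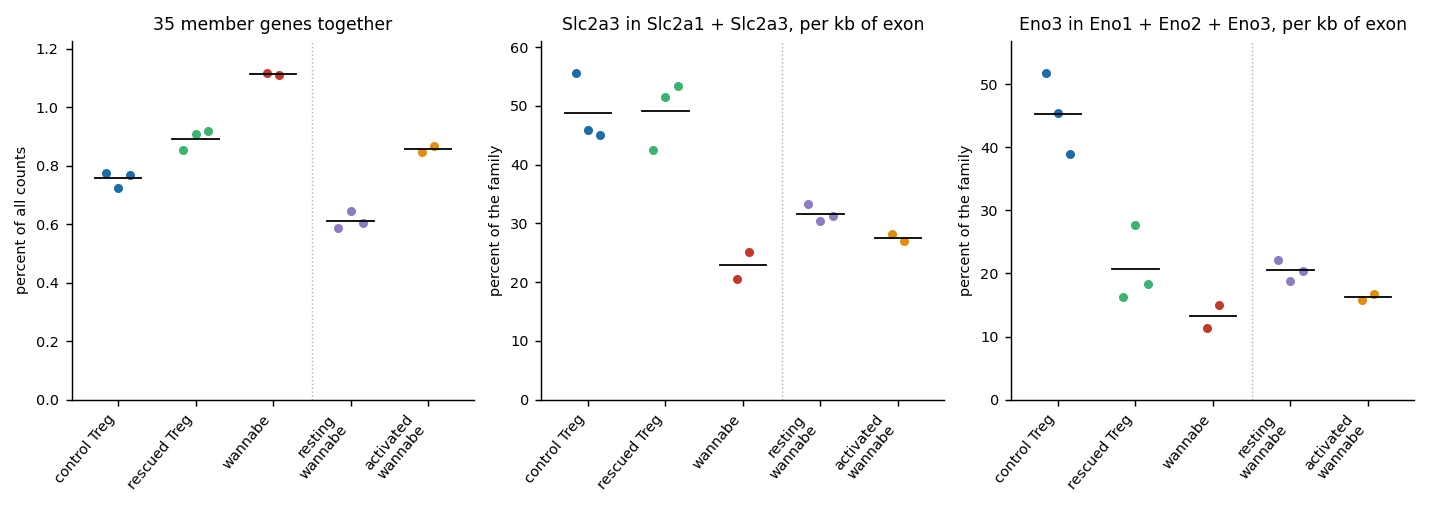
Left, percent of all counts held by the 35 genes in each library (points) with the group mean (bar). Middle and right, the percent of Slc2a3 in the summed level per kilobase of Slc2a1 and Slc2a3, and of Eno3 in that of Eno1, Eno2 and Eno3. The dotted line parts the male from the female experiment. The members' share runs from 0.725% to 0.775% in control Treg cells and reaches 1.12% in wannabes, while Slc2a3 takes its largest shares in both Treg populations and Eno3 in control Treg cells.

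Control Treg cells were compared with wannabes to ask how Treg cells of healthy mice differ from cells that would have become Treg cells but lack Foxp3. The wannabe mice were also sick and carried another Foxp3 allele and no Cre, so that Foxp3, disease and genotype cannot be told apart here. Of the 35 members, 13 were called lower in control Treg cells, against 6.27% of all 14925 genes tested, and 4 were called higher, against 9.92%. The lower members were the glycolysis genes Slc2a1, Gpi1, Pfkl, Pfkp, Aldoa, Tpi1, Gapdh, Pgk1, Eno1, Pkm and Ldha, the lactate exporter gene Slc16a3 and the pentose phosphate gene Tkt, while the hexokinase and phosphoglycerate mutase steps held no called member. The higher members were Slc2a3, Eno3, Pdk1 and Pdk3. The median log2 difference over the members was -0.22, and over all genes 0.09. Libraries did not overlap in 17 members that were lower, against 20.7% of all genes, and in 7 that were higher, against 25.4%. Calls of 9 members, Aldoa, Tpi1, Gapdh, Pgk1, Pkm, Ldha, Eno3, Pdk1 and Pdk3, were kept when each of the 8 male libraries was left out in turn. The number called lower was 6, 7 and 7 without control Treg replicate 1, 2 and 3. Calls over all genes were not counted in these fits, so whether the loss is particular to the members is not shown.

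Rescued Treg cells had recovered Foxp3 in sick mice, and their comparison with control Treg cells asks how far the 2 Treg populations differ. The 2 groups carried different Foxp3 alleles, so that allele and disease cannot be told apart here. Of the members, 2 were called higher, Aldoa and Pkm, against 1.43% of all genes tested, and 2 were called lower, Eno3 and Ldhb, against 0.864%. The median log2 difference was 0.18 over the members and -0.03 over all genes. Libraries did not overlap in 13 members with the rescued Treg cells higher, against 12.6% of all genes, and in 4 with them lower, against 11.6%. At an unadjusted p under 0.05, 10 members were higher, against 9.11% of all genes, and 3 lower, against 6.99%. Without any 1 of the 6 Treg libraries no member was called higher, and none was called lower, except 1 without rescued Treg replicate 2. The wannabe libraries, though in neither group, also enter the filter, the scaling and the estimate of the spread of this fit. The number called higher was 1 with total counts, against 1.18% of all genes, 4 with only the 2 groups compared, against 2.58%, 5 among genes with a mean normalized count over 100, against 3.08%, and 7 with DESeq2, against 5.07%.

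Rescued Treg cells were also compared with wannabes, which come from mice of the same Foxp3LSL allele that stayed sick. The wannabe mice carried no Cre, so that Foxp3, Cre and disease cannot be told apart here either. This comparison and that of control Treg cells use the same 2 wannabe libraries. Of the members, 3 were called higher in rescued Treg cells, Slc2a3, Pdk1 and Pdk3, against 10.0% of all genes tested, and 4 were called lower, Aldoa, Eno1, Pkm and Ldhb, against 4.06%. The median log2 difference was -0.25 over the members and 0.00 over all genes. Libraries did not overlap in 15 members that were lower, against 20.7% of all genes, and in 6 that were higher, against 22.0%. The calls of Slc2a3, Pdk1 and Pdk3 were kept without each of the 8 libraries, while the number called lower was 2 without rescued Treg replicate 1 and 1 without rescued Treg replicate 2.

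**Figure D2:**
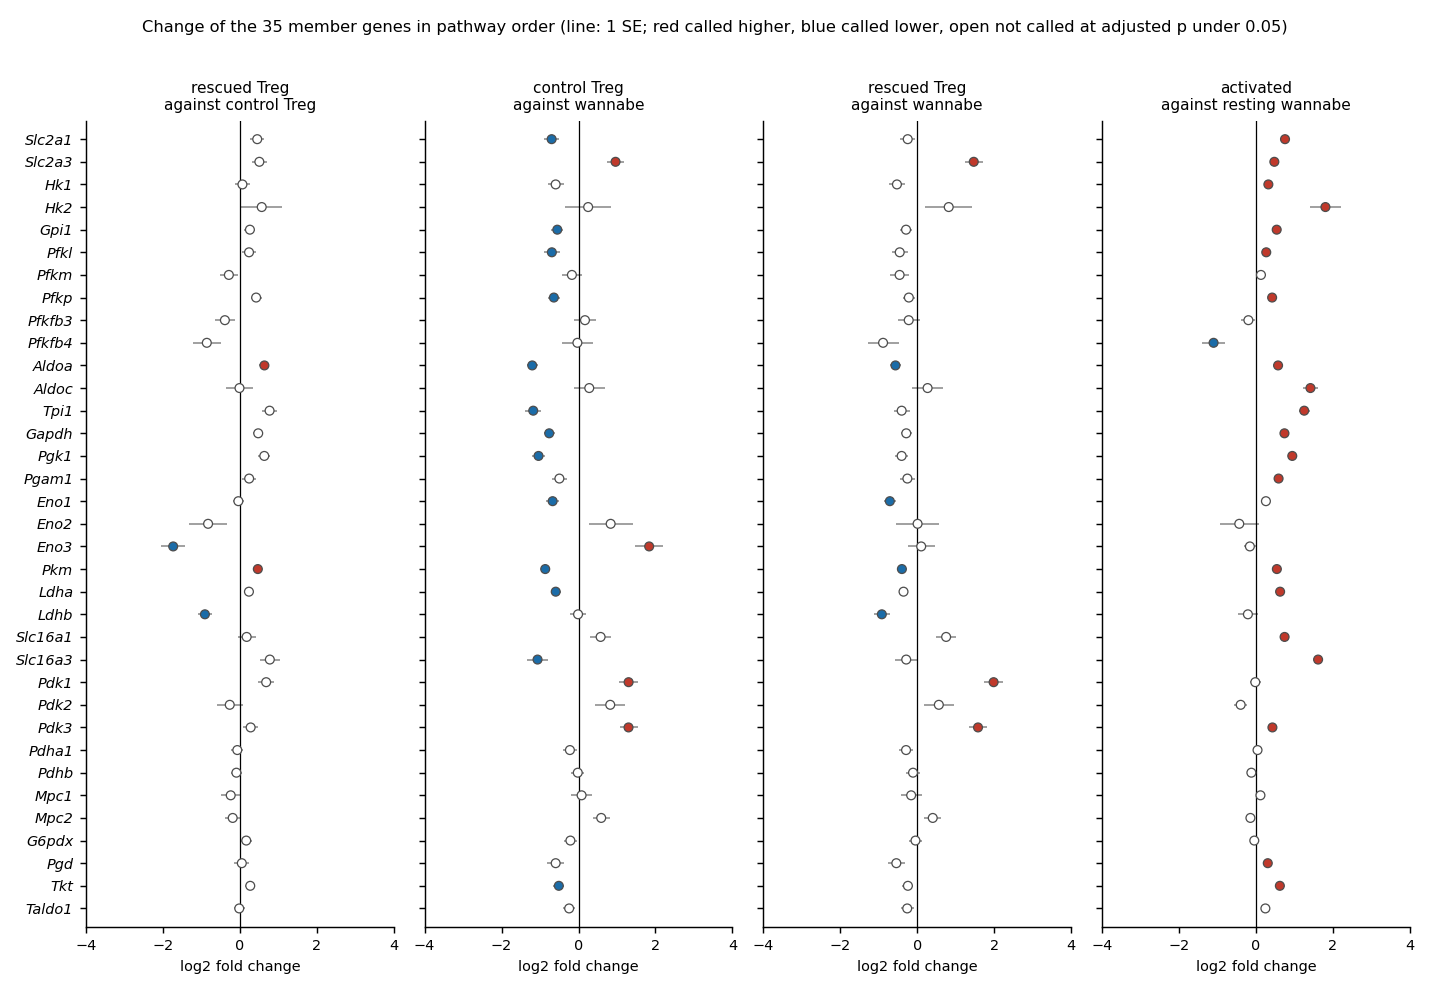
Log2 fold change of the 35 genes in pathway order, from glucose transport at the top to the pentose phosphate branch at the bottom, in 4 comparisons. Points are edgeR estimates, lines 1 SE, red points genes called higher, blue points genes called lower and open points genes not called. In control Treg cells against wannabes 13 points are blue and 4 red, and in activated against resting wannabes 20 are red and 1 is blue.

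The members were also sorted by the order of the male group means. In 16 members control Treg cells were lowest, rescued Treg cells between and wannabes highest, an order held by 20.05% of all genes tested, and in 8 of these, Slc2a1, Gpi1, Aldoa, Gapdh, Pgk1, Pkm, Ldha and Tkt, neither step overlapped, against 2.12% of all genes. In 5 members wannabes were lowest and rescued Treg cells highest, against 20.2%, and in Slc2a3 and Pdk1 neither step of that order overlapped, against 3.76%. In 7 members rescued Treg cells were lowest and wannabes highest, against 18.3% of all genes, and in 5 wannabes were lowest and control Treg cells highest, against 22.2%. The remaining 2 members, Pfkfb3 and Mpc1, had their lowest mean in rescued and their highest in control Treg cells, against 11.5% of all genes, with overlap at both steps.

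At glucose uptake, the 2 transporter genes went in opposite directions between control Treg cells and wannabes. Slc2a1, which encodes the widely expressed transporter GLUT1, was at 76.7, 114 and 103 CPM in control Treg cells, 137, 119 and 146 CPM in rescued Treg cells and 154 and 164 CPM in wannabes. Its control Treg libraries all lay below the wannabe libraries (log2 difference -0.70 ± 0.19, adjusted p = 0.0315). The rescued libraries lay between and were called against neither group (against control 0.45 ± 0.18, adjusted p = 0.233, against wannabes -0.25 ± 0.20, adjusted p = 0.443). Slc2a3, which encodes the high-affinity transporter GLUT3, was at 198, 199.7 and 175 CPM in control Treg cells, 208, 261 and 345 CPM in rescued Treg cells and 81.9 and 114 CPM in wannabes. Both Treg populations lay above the wannabes, by 0.96 ± 0.23, adjusted p = 0.0168 for control and 1.47 ± 0.24, adjusted p = 0.00197 for rescued Treg cells. Per kilobase of exon, Slc2a3 made up 55.5%, 46.0% and 45.1% of the sum of both genes in control Treg cells, 42.4%, 51.5% and 53.3% in rescued Treg cells, and 20.5% and 25.2% in wannabes. By this measure the 2 transporters took near equal parts in Treg cells, and Slc2a1 the larger part in wannabes. Without division by length the mean share of Slc2a3 was 66.2% in control Treg cells, 66.4% in rescued Treg cells and 37.9% in wannabes. The near equal parts in Treg cells thus depend on the exon lengths used.

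Hexokinases, which trap glucose as glucose 6-phosphate, were not called in any male comparison. Hk1 held at least 97.7% of the sum of Hk1 and Hk2 per kilobase in each male library. Its log2 difference between control Treg cells and wannabes was -0.59 ± 0.21, adjusted p = 0.0744. The inducible Hk2 was at 4.05, 5.31 and 1.55 CPM in control Treg cells, 4.52, 5.21 and 6.46 CPM in rescued Treg cells and 2.15 and 3.97 CPM in wannabes, so that its libraries overlapped between control Treg cells and either other group. Gpi1, encoding glucose 6-phosphate isomerase, was at 356, 326 and 386 CPM in control Treg cells, 395, 422 and 463 CPM in rescued Treg cells and 464 and 579.8 CPM in wannabes, and was lower in control Treg cells than in wannabes (-0.55 ± 0.16, adjusted p = 0.0336).

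Phosphofructokinase commits the sugar to glycolysis. The liver-type gene Pfkl was at 177, 150.2 and 156 CPM in control Treg cells, 162, 179 and 229.9 CPM in rescued Treg cells and 207 and 315 CPM in wannabes, and the difference between control Treg cells and wannabes was -0.69 ± 0.21, adjusted p = 0.0465. The platelet-type gene Pfkp was at 332, 310.4 and 346 CPM in control Treg cells, 383, 443 and 499.6 CPM in rescued Treg cells and 463 and 564 CPM in wannabes, and differed by -0.64 ± 0.16, adjusted p = 0.0201. The muscle-type gene Pfkm, at 22.6 to 42.4 CPM over the male libraries, was not called (control against wannabe -0.17 ± 0.26, adjusted p = 0.695). The call of Pfkl was lost with total counts and without any control Treg library, rescued Treg replicate 2 or wannabe replicate 2, and that of Pfkp without any control Treg library or wannabe replicate 2. Pfkfb3 and Pfkfb4, which encode the bifunctional enzymes that set the activator fructose 2,6-bisphosphate, were not called in the male comparisons. Pfkfb4 was at 6.31, 6.98 and 9.37 CPM in control Treg cells, 3.43, 4.94 and 4.14 CPM in rescued Treg cells and 7.96 and 7.45 CPM in wannabes, with the rescued libraries below all others but short of the threshold (against control -0.86 ± 0.37, adjusted p = 0.279).

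Aldolase splits the sugar into its triose phosphates, and Aldoa was called in every male comparison. It was at 501, 459 and 486 CPM in control Treg cells, 681, 719.8 and 849 CPM in rescued Treg cells and 1028 and 1190.3 CPM in wannabes. The 3 groups did not overlap, with differences of -1.20 ± 0.14, adjusted p = 0.000725 between control Treg cells and wannabes, 0.64 ± 0.13, adjusted p = 0.0295 between rescued and control Treg cells and -0.56 ± 0.14, adjusted p = 0.024 between rescued Treg cells and wannabes. The last of these calls was lost with only the 2 groups compared and without rescued Treg replicate 1 or 2 or wannabe replicate 2. Aldoc, the brain-type isoenzyme, was at 19.3, 14.3 and 16.4 CPM in control Treg cells, 18.4, 16.0 and 15.3 CPM in rescued Treg cells and 20.2 and 7.25 CPM in wannabes, made up 0.541% to 3.32% of the aldolase sum per kilobase and was not called (control against wannabe 0.28 ± 0.40, adjusted p = 0.681, rescued against control -0.01 ± 0.35, adjusted p = 0.994, rescued against wannabe 0.27 ± 0.40, adjusted p = 0.709).

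Downstream, the genes of the triose phosphates shared the order of group means of Aldoa. Tpi1, which interconverts the triose phosphates, was at 166, 164 and 237 CPM in control Treg cells, 286, 299 and 384 CPM in rescued Treg cells and 471 and 383 CPM in wannabes, and was lower in control Treg cells than in wannabes (-1.18 ± 0.21, adjusted p = 0.00378). Gapdh, whose enzyme makes the first NADH of the pathway, was at 339, 275 and 335 CPM in control Treg cells, 439, 460.0 and 421 CPM in rescued Treg cells and 524 and 548 CPM in wannabes, with a difference of -0.76 ± 0.15, adjusted p = 0.0056. Pgk1, whose enzyme makes the first ATP, was at 108, 91.9 and 102 CPM in control Treg cells, 151, 164 and 155 CPM in rescued Treg cells and 237 and 177 CPM in wannabes, with a difference of -1.04 ± 0.17, adjusted p = 0.00301. In all these genes the rescued libraries lay above every control Treg library, but the differences missed the threshold, at 0.77 ± 0.19, adjusted p = 0.0614 for Tpi1, 0.48 ± 0.13, adjusted p = 0.0947 for Gapdh and 0.64 ± 0.16, adjusted p = 0.0649 for Pgk1. Rescued Treg cells were not called against wannabes either, at -0.40 ± 0.21, adjusted p = 0.229 for Tpi1, whose libraries overlapped, -0.28 ± 0.15, adjusted p = 0.233 for Gapdh and -0.40 ± 0.17, adjusted p = 0.153 for Pgk1. Pgam1, encoding phosphoglycerate mutase, was at 63.5, 47.6 and 66.3 CPM in control Treg cells, 65.8, 68.1 and 75.8 CPM in rescued Treg cells and 86.2 and 80.7 CPM in wannabes and was not called (control against wannabe -0.50 ± 0.20, adjusted p = 0.115).

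Enolase, the step before pyruvate kinase, showed the largest change of a member between Treg populations. Eno3, the muscle-type gene, was at 52.9, 38.3 and 36.5 CPM in control Treg cells, 8.90, 17.8 and 11.8 CPM in rescued Treg cells and 9.39 and 14.4 CPM in wannabes. Control Treg cells lay apart from both other groups, 1.84 ± 0.37, adjusted p = 0.00718 against wannabes, and rescued Treg cells were lower than control Treg cells (-1.73 ± 0.32, adjusted p = 0.0187). Eno3 did not separate rescued Treg cells from wannabes (0.10 ± 0.35, adjusted p = 0.886). Eno1, the widely expressed enolase gene, was at 139, 133 and 168 CPM in control Treg cells, 137, 138 and 154 CPM in rescued Treg cells and 225 and 243 CPM in wannabes. It was lower in both Treg populations than in wannabes (-0.67 ± 0.16, adjusted p = 0.0182 in control and -0.71 ± 0.16, adjusted p = 0.0145 in rescued Treg cells) and did not differ detectably between them (-0.04 ± 0.15, adjusted p = 0.947). Per kilobase Eno3 was 51.7%, 45.3% and 38.9% of the enolase sum in control Treg cells, 16.3%, 27.7% and 18.3% in rescued Treg cells and 11.3% and 15.0% in wannabes, and the control libraries did not overlap the others. The size of this share depends on the merged exon lengths, 1739 bases for Eno3 and 5379 for Eno1. Without division by length its mean was 21.5% in control Treg cells, 7.94% in rescued Treg cells and 4.70% in wannabes. The neuron-type Eno2 was at 2.06 to 12.2 CPM and was not called (rescued against control -0.83 ± 0.50, adjusted p = 0.473, control against wannabe 0.84 ± 0.57, adjusted p = 0.349, rescued against wannabe 0.01 ± 0.56, adjusted p = 0.995).

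Pkm, the pyruvate kinase gene, was at 1348, 1292 and 1393 CPM in control Treg cells, 1809.8, 1855 and 1913 CPM in rescued Treg cells and 2462 and 2437 CPM in wannabes. The 3 groups did not overlap, and each pair was called, control against wannabe at -0.87 ± 0.11, adjusted p = 0.00105, rescued against control at 0.47 ± 0.10, adjusted p = 0.0407 and rescued against wannabe at -0.40 ± 0.11, adjusted p = 0.0403. The last of these calls was lost without any 1 library other than wannabe replicate 2 and under 4 other settings, and the call between Treg populations was lost with total counts and with no filter on low counts.

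At lactate formation and export, both dehydrogenase genes differed between groups, in different comparisons. Ldha was at 1648, 1348 and 1468 CPM in control Treg cells, 1736, 1854 and 1670.4 CPM in rescued Treg cells and 2226 and 2260.4 CPM in wannabes, and was lower in control Treg cells than in wannabes (-0.59 ± 0.13, adjusted p = 0.0103), with rescued Treg cells in between (0.24 ± 0.12, adjusted p = 0.347 against control, -0.36 ± 0.13, adjusted p = 0.0938 against wannabes). Ldhb, the heart-type subunit gene, was at 83.8, 92.9 and 74.2 CPM in control Treg cells, 41.7, 51.7 and 40.4 CPM in rescued Treg cells and 72.0 and 96.7 CPM in wannabes. All rescued libraries lay below all others (-0.91 ± 0.19, adjusted p = 0.0324 against control Treg cells and -0.92 ± 0.21, adjusted p = 0.0137 against wannabes), whereas control Treg cells and wannabes overlapped (-0.01 ± 0.21, adjusted p = 0.981). Slc16a3, which encodes the lactate exporter MCT4, was at 27.5, 28.2 and 32.2 CPM in control Treg cells, 34.8, 44.8 and 71.5 CPM in rescued Treg cells and 59.4 and 63.3 CPM in wannabes, and was lower in control Treg cells than in wannabes (-1.06 ± 0.28, adjusted p = 0.0258). Slc16a1, encoding MCT1, was at 57.4, 55.4 and 39.5 CPM in control Treg cells, 64.6, 65.8 and 41.9 CPM in rescued Treg cells and 35.3 and 32.9 CPM in wannabes, so that the wannabe libraries were the lowest, but it was not called (control against wannabe 0.57 ± 0.26, adjusted p = 0.163, rescued against wannabe 0.75 ± 0.26, adjusted p = 0.0859).

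**Figure D3:**
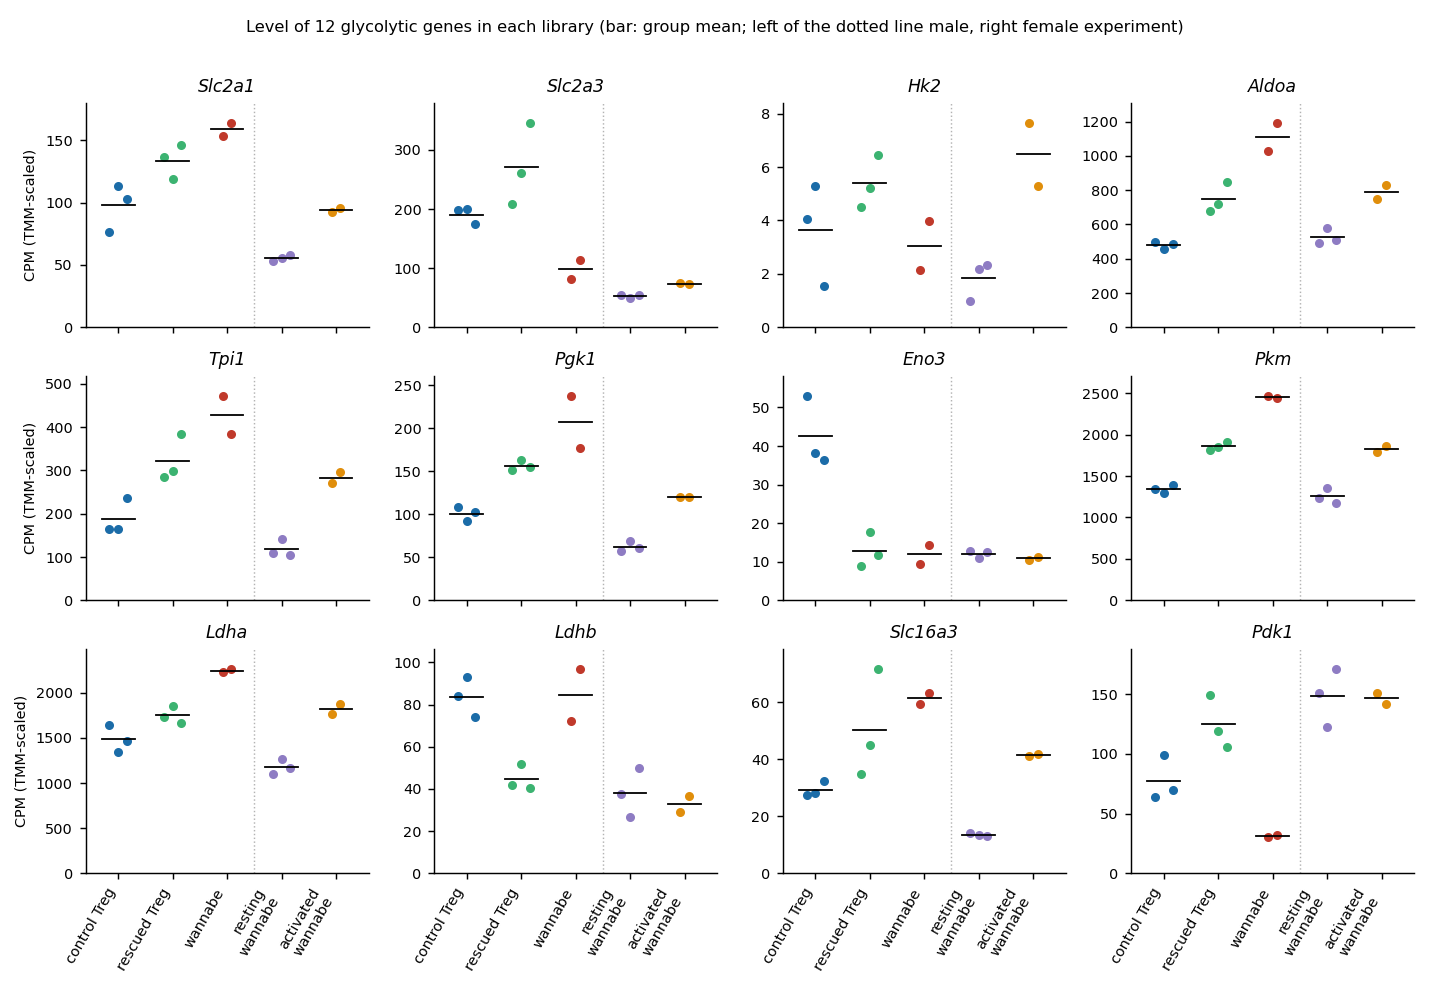
Level of 12 genes in each library, in TMM-scaled CPM on a linear axis from 0 (points), with the group mean (bar). The dotted line parts the male from the female experiment, which were scaled separately. Aldoa, Pkm and Ldha step up from control Treg cells over rescued Treg cells to wannabes, Slc2a3 and Pdk1 are lower in wannabes than in either Treg population of the male experiment, and Eno3 is high in control Treg cells only, at 36.5 to 52.9 CPM.

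Among the pyruvate dehydrogenase kinases, Pdk1 and Pdk3 were higher in both Treg populations than in wannabes. Pdk1 was at 63.8, 99.1 and 69.7 CPM in control Treg cells, 149, 119 and 105 CPM in rescued Treg cells and 30.6 and 32.3 CPM in wannabes. Every Treg library lay above both wannabe libraries, by 1.30 ± 0.24, adjusted p = 0.005 in control and 1.99 ± 0.25, adjusted p = 0.000528 in rescued Treg cells, the largest positive difference of a member in the latter comparison. Pdk3 was at 76.6, 51.7 and 54.7 CPM in control Treg cells, 76.9, 80.0 and 65.5 CPM in rescued Treg cells and 25.3 and 24.3 CPM in wannabes, and differed by 1.30 ± 0.23, adjusted p = 0.00425 and 1.58 ± 0.24, adjusted p = 0.0013. Pdk2, the third kinase gene measured among the members, was at 16.0, 26.4 and 18.6 CPM in control Treg cells, 11.3, 21.6 and 18.0 CPM in rescued Treg cells and 8.25 and 14.7 CPM in wannabes and was not called (control against wannabe 0.82 ± 0.39, adjusted p = 0.178, rescued against wannabe 0.56 ± 0.39, adjusted p = 0.376). Of the genes for the enzyme that these kinases act on, Pdha1, at 186 to 296 CPM, and Pdhb, at 113 to 148 CPM over the male libraries, were called in no comparison. The carrier genes Mpc1 and Mpc2 were not called either, with log2 differences between control Treg cells and wannabes of 0.08 ± 0.27 and 0.59 ± 0.22.

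In the pentose phosphate branch the non-oxidative gene Tkt was called and the oxidative entry was not. Tkt, encoding transketolase, was at 298, 272 and 279 CPM in control Treg cells, 369, 312 and 343 CPM in rescued Treg cells and 407 and 401 CPM in wannabes, and was lower in control Treg cells than in wannabes (-0.51 ± 0.14, adjusted p = 0.0304). G6pdx, which encodes the X-linked first enzyme of the branch, ranged from 109 to 140 CPM over the male libraries, with a log2 difference of -0.21 ± 0.16, adjusted p = 0.4. Pgd, the second dehydrogenase, differed by -0.59 ± 0.21, adjusted p = 0.0818 and Taldo1, encoding transaldolase, by -0.24 ± 0.16, adjusted p = 0.345. None of these 3 passed the threshold in a male comparison.

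Proliferation markers moved with these groups. The summed level of Mki67, Top2a, Ccnb1, Ccna2, Cdk1 and Mcm2 was 256 to 558 CPM in control Treg cells, 506 to 993 CPM in rescued Treg cells and 680 to 1387 CPM in wannabes. Of the 6 markers, 3 were called lower in control Treg cells than in wannabes, 1 was called lower in rescued Treg cells than in wannabes and 0 were called between the Treg populations. Of markers of other cell types, 1 myeloid marker was called higher and 1 NK and 1 erythroid marker lower in control Treg cells than in wannabes, and 0 were called in the other male comparisons. The part of dividing cells or of other cells in the members' differences was not tested. In these bulk libraries, more cells that express a gene and more of its RNA per cell cannot be told apart.

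Activated wannabes were compared with resting wannabes to ask what cells lacking Foxp3 do when the other Treg cells of the animal are removed. Of the 35 members, 20 were called higher in activated wannabes, against 11.3% of the 13166 genes tested, and 1, Pfkfb4, was called lower, against 11.2%. The higher members covered transport (Slc2a1, Slc2a3), both hexokinases, Gpi1, Pfkl, Pfkp, both aldolases, Tpi1, Gapdh, Pgk1, Pgam1, Pkm, Ldha, both lactate transporters, Pdk3, Pgd and Tkt. The median log2 difference over the members was 0.32, and over all genes -0.01. Libraries did not overlap in 22 members that were higher, against 27.9% of all genes, and in 4 that were lower, against 28.6%. Calls of Slc2a1, Tpi1, Pgk1, Ldha, Slc16a3 and Tkt were kept without each of the 5 libraries. Without activated wannabe replicate 1 or 2, which leaves 1 library in that group, fewer members were called higher. Calls over all genes were not counted in those fits. Pfkfb4 was no longer called without either activated library or without resting wannabe replicate 1 or 3.

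At uptake and trapping of glucose, the transporter and hexokinase genes rose together in activated wannabes. Slc2a1 was at 53.1, 56.0 and 58.1 CPM in resting and 92.4 and 95.9 CPM in activated wannabes (0.76 ± 0.08, adjusted p = 0.00212). Slc2a3 rose less, by 0.48 ± 0.09, adjusted p = 0.0119, and its share of both transporters per kilobase was 33.2%, 30.3% and 31.2% in resting and 28.2% and 26.9% in activated wannabes. Hk2 was at 0.992, 2.20 and 2.34 CPM in resting and 7.64 and 5.30 CPM in activated wannabes, and had the largest difference of a member in this comparison, 1.81 ± 0.40, adjusted p = 0.0232. Hk1, the far more abundant isoenzyme, rose by 0.32 ± 0.08, adjusted p = 0.0264, a call that was lost with the replicate numbers as a block. Hk2 stayed at 2.72% or less of the hexokinase sum per kilobase in both groups.

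Along the trunk of the pathway, from Gpi1 to Pkm, 10 members were called higher, 8 of them by 0.27 to 0.95, and 1, Pfkfb4, lower. Aldoc was at 6.41, 5.94 and 4.34 CPM in resting and 14.5 and 15.3 CPM in activated wannabes (1.42 ± 0.21, adjusted p = 0.00551), a larger rise than that of the main aldolase gene Aldoa, which was at 493, 580.3 and 511 CPM in resting and 749 and 828 CPM in activated wannabes (0.58 ± 0.10, adjusted p = 0.00864). Tpi1 was at 108, 142 and 105 CPM in resting and 269.7 and 296 CPM in activated wannabes (1.26 ± 0.14, adjusted p = 0.00216). Pgk1 was at 57.7, 69.0 and 60.6 CPM in resting and 120.2 and 120.3 CPM in activated wannabes (0.95 ± 0.10, adjusted p = 0.00166). In each of these genes both activated libraries lay above all resting ones. Gapdh was at 174, 221 and 176 CPM in resting and 317 and 321 CPM in activated wannabes (0.74 ± 0.12, adjusted p = 0.00746). Pgam1 was at 47.8, 58.5 and 47.9 CPM in resting and 72.7 and 82.1 CPM in activated wannabes (0.59 ± 0.12, adjusted p = 0.0196). Pkm was at 1232, 1350.4 and 1179 CPM in resting and 1793 and 1868 CPM in activated wannabes (0.55 ± 0.08, adjusted p = 0.00563). These levels in resting wannabes were the lower ones throughout, with no library overlapping. Gpi1, Pfkp and Pfkl rose by 0.54, 0.42 and 0.27, and the call of Pfkl did not survive the loss of any single library. It was also lost with total counts, with no filter on low counts and with the replicate numbers as a block. Pfkm (0.13 ± 0.14, adjusted p = 0.525) and Pfkfb3 (-0.19 ± 0.18, adjusted p = 0.477) were not called.

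Pfkfb4 was the one member called lower. It was at 8.96, 5.73 and 7.03 CPM in resting and 2.71 and 4.05 CPM in activated wannabes (-1.10 ± 0.30, adjusted p = 0.0416), and its call was lost with the replicate numbers as a block and with no filter on low counts. The enolase genes were not called, with Eno1 at 133, 143 and 149 CPM in resting and 172 and 168 CPM in activated wannabes (0.26 ± 0.08, adjusted p = 0.0585), Eno2 at -0.43 ± 0.51, adjusted p = 0.57 and Eno3 at -0.16 ± 0.15, adjusted p = 0.499. Per kilobase Eno3 was 22.2%, 18.8% and 20.4% of the enolase sum in resting and 15.8% and 16.8% in activated wannabes.

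At the end of the pathway, lactate export showed the best separated member. Slc16a3 was at 14.0, 13.5 and 13.1 CPM in resting and 41.0 and 41.9 CPM in activated wannabes (1.62 ± 0.11, adjusted p = 0.000465), with the smallest adjusted p of a member in any comparison. Slc16a1 was at 53.3, 53.7 and 63.3 CPM in resting and 86.9 and 104 CPM in activated wannabes (0.75 ± 0.12, adjusted p = 0.00838). Ldha was at 1095, 1266 and 1167 CPM in resting and 1759 and 1880.2 CPM in activated wannabes (0.63 ± 0.08, adjusted p = 0.00389). Ldhb, at 37.4, 26.5 and 49.9 CPM in resting and 29.0 and 36.7 CPM in activated wannabes, overlapped between the groups and was not called (-0.21 ± 0.26, adjusted p = 0.602). Pdk3 rose by 0.43 ± 0.10, adjusted p = 0.0301, whereas Pdk1, at 151, 123 and 171 CPM in resting and 151 and 142 CPM in activated wannabes, and Pdk2 were not called (-0.01 ± 0.14, adjusted p = 0.95 for Pdk1 and -0.40 ± 0.17, adjusted p = 0.141 for Pdk2). Tkt was at 182, 196 and 193 CPM in resting and 290.4 and 296 CPM in activated wannabes (0.62 ± 0.07, adjusted p = 0.00235) and Pgd rose by 0.31 ± 0.07, adjusted p = 0.0288, while G6pdx, Taldo1, Pdha1, Pdhb, Mpc1 and Mpc2 were not called, with log2 differences from -0.14 to 0.25. The calls of Pdk3 and Pgd were lost with the replicate numbers as a block and without any 1 library other than resting wannabe replicate 2.

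All 6 proliferation markers were called higher in activated wannabes, with summed levels of 990 to 1021 CPM against 248 to 295 CPM in resting wannabes. Of the 4 B cell markers 2 could be tested and 1 was called higher, with summed levels of 22.5 to 24.5 CPM against 10.0 to 11.8 CPM. The part of either in the members' rise was not tested.

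Across both experiments, 12 members were called lower in control Treg cells than in wannabes and higher in activated than in resting wannabes, namely Slc2a1, Gpi1, Pfkl, Pfkp, Aldoa, Tpi1, Gapdh, Pgk1, Pkm, Ldha, Slc16a3 and Tkt. Of the 12972 genes tested in both fits 3.04% had this pair of calls. The 2 comparisons share no library. Slc2a3 and Pdk3 were higher in control Treg cells than in wannabes and also higher in activated than in resting wannabes, against 0.555% of those genes. Aldoa and Pkm were called in all 4 comparisons, against 0.262%. Called in none, as were 61.1% of those genes, were Pfkm, Pfkfb3, Eno2, Pdk2, Pdha1, Pdhb, Mpc1, Mpc2, G6pdx and Taldo1.

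A member may have changed differently between control and rescued Treg cells than between resting and activated wannabes, and this was tested in a single fit to the 13 libraries, as the log2 change in Treg cells minus that in wannabes. By edgeR, 0 of 35 members were called, against 0.803% of 15201 genes called with a positive difference and 0.730% with a negative one. At an unadjusted p under 0.05, 1 member had a positive difference, against 7.12% of all genes, and 5 a negative one, against 6.66%. DESeq2 called 1 member with a negative difference, against 2.60% of all genes. The member closest to the threshold was Eno3, with a difference between the changes of -1.56 ± 0.40, adjusted p = 0.079, followed by Aldoc with -1.41 ± 0.47, adjusted p = 0.174. For the members called in both experiments the difference was 0.08 ± 0.18, adjusted p = 0.929 for Aldoa and -0.06 ± 0.13, adjusted p = 0.913 for Pkm. The median over the members was -0.25, and over all genes -0.03. Sex, age, treatment, cell population and experiment differ between the 2 changes and cannot be told apart.

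**Figure D4:**
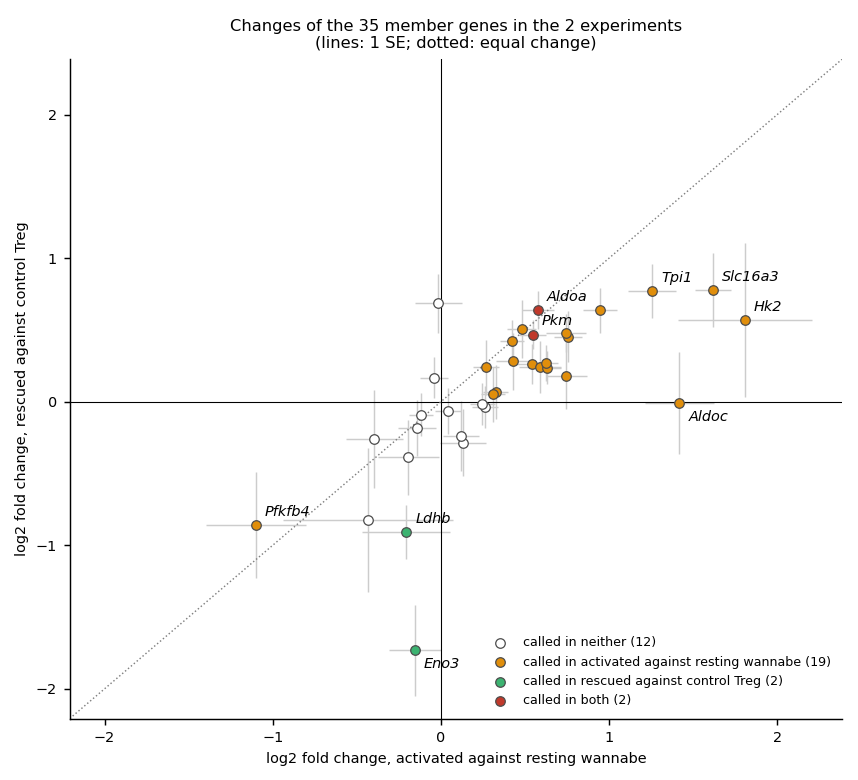
Log2 fold change of each of the 35 genes between activated and resting wannabes (horizontal axis) and between rescued and control Treg cells (vertical axis), with lines of 1 SE. Colours show in which comparison a gene was called, and the dotted line marks equal change. Aldoa and Pkm were called in both, 19 genes in the wannabe comparison and not the other, and Eno3 and Ldhb in the Treg comparison and not the other. Most points lie below the dotted line.

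Genes of the pathway outside the members, 43 in number, gave a mixed picture. Of the 37 that could be tested in the male fit, 0 were called higher and 2 lower in rescued than in control Treg cells, against 1.43% and 0.864% of all genes. In control Treg cells against wannabes 5 were higher and 2 lower, against 9.92% and 6.27%, and in rescued Treg cells against wannabes 7 were higher and 2 lower, against 10.0% and 4.06%. Of the 30 tested in the female fit, 4 were higher and 4 lower in activated wannabes, against 11.3% and 11.2% of all genes. Pgls, whose enzyme follows G6pdx in the oxidative branch, was at 30.6, 34.2 and 27.6 CPM in control Treg cells, 80.4, 48.5 and 46.4 CPM in rescued Treg cells and 6.56 and 10.5 CPM in wannabes. It was higher than in wannabes by 1.86 ± 0.33, adjusted p = 0.00398 in control and 2.78 ± 0.34, adjusted p = 0.000499 in rescued Treg cells, and the wannabe libraries lay apart. Dlat, the E2 subunit gene of pyruvate dehydrogenase, was higher by 1.18 ± 0.19, adjusted p = 0.00267 and 1.19 ± 0.19, adjusted p = 0.00206 in the same comparisons, and Pgam5, a mitochondrial phosphatase of the mutase family, by 1.74 ± 0.25, adjusted p = 0.00166 and 2.22 ± 0.26, adjusted p = 0.000395. Gpd2, encoding the mitochondrial glycerol 3-phosphate dehydrogenase, was lower in rescued Treg cells than in control Treg cells (-0.99 ± 0.22, adjusted p = 0.0387) and wannabes (-1.33 ± 0.24, adjusted p = 0.00357). G6pc3, a glucose 6-phosphatase, was lower than in wannabes in both control (-0.96 ± 0.26, adjusted p = 0.0289) and rescued Treg cells (-1.14 ± 0.26, adjusted p = 0.014), and the mutase gene Pgam2 was lower in control Treg cells (-1.30 ± 0.39, adjusted p = 0.045). In activated wannabes the sugar transporter genes Slc2a6 and Slc2a8 were higher by 3.42 ± 0.55, adjusted p = 0.00808 and 0.70 ± 0.15, adjusted p = 0.0192, the transketolase-like Tktl1 by 2.47 ± 0.64, adjusted p = 0.0373 and Pcx, encoding pyruvate carboxylase, by 1.48 ± 0.27, adjusted p = 0.013. The 4 called lower in activated wannabes were Pck2, the mitochondrial phosphoenolpyruvate carboxykinase gene (-0.95 ± 0.16, adjusted p = 0.00838), Adpgk, which encodes an ADP-dependent glucokinase (-0.41 ± 0.08, adjusted p = 0.0157), the mitochondrial malic enzyme gene Me2 (-0.40 ± 0.10, adjusted p = 0.0381) and the ribose phosphate pyrophosphokinase gene Prps2 (-0.32 ± 0.08, adjusted p = 0.0351). Pck2 was also lower in rescued than in control Treg cells (-1.09 ± 0.24, adjusted p = 0.0424) and higher in control Treg cells than in wannabes (0.94 ± 0.28, adjusted p = 0.0398), and Me2 was higher than in wannabes in control (0.70 ± 0.18, adjusted p = 0.0236) and rescued Treg cells (0.64 ± 0.18, adjusted p = 0.0381). Higher in rescued Treg cells than in wannabes were also Slc2a8 (1.40 ± 0.34, adjusted p = 0.0177), Pdpr, which encodes a regulatory subunit of pyruvate dehydrogenase phosphatase (0.87 ± 0.23, adjusted p = 0.0291), and Bsg, the partner protein gene of the lactate transporters (0.59 ± 0.18, adjusted p = 0.0481).

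Of 12 regulators of the pathway, 7 were called in at least 1 of the 4 comparisons, as were 38.9% of the 12972 genes tested in both fits. Hif1a was at 348, 291 and 320.0 CPM in control Treg cells, 568, 613 and 579 CPM in rescued Treg cells and 92.4 and 67.8 CPM in wannabes. The 3 groups did not overlap, and the gene was higher in control Treg cells than in wannabes (2.00 ± 0.18, adjusted p = 0.000209), in rescued than in control Treg cells (0.88 ± 0.15, adjusted p = 0.014) and in rescued Treg cells than in wannabes (2.87 ± 0.19, adjusted p = 6.24e-05). The order of Hif1a means was that of 5 members, Slc2a3, Hk2, Slc16a1, Pdk1 and Pdk3, and of 20.2% of all genes tested. In 16 members, among them Slc2a1, Aldoa, Pgk1, Pkm and Ldha, wannabes were highest and control Treg cells lowest, with rescued Treg cells between, against 20.05%. Epas1, encoding HIF-2 alpha, was at 1.11, 0.250 and 0.431 CPM in control Treg cells, 41.5, 24.1 and 41.3 CPM in rescued Treg cells and 131 and 176 CPM in wannabes, and at 2.52, 8.03 and 3.57 CPM in resting and 98.5 and 94.2 CPM in activated wannabes. It was lower in control Treg cells than in wannabes (-8.03 ± 0.51, adjusted p = 4.07e-05), higher in activated than in resting wannabes (4.35 ± 0.43, adjusted p = 0.00134) and higher in rescued than in control Treg cells (5.92 ± 0.47, adjusted p = 0.000393). The first 2 of these directions were those of the 12 members named above and of 3.04% of the 12972 genes tested in both fits. Of these members Aldoa and Pkm were also called higher in rescued than in control Treg cells. The part of either factor in the members' levels was not tested. In rescued Treg cells Epas1 was below wannabes (-2.11 ± 0.39, adjusted p = 0.00463). Egln3, a prolyl hydroxylase gene of the HIF pathway, was at 20.9, 13.3 and 23.2 CPM in control Treg cells, 57.8, 47.9 and 58.2 CPM in rescued Treg cells and 40.7 and 38.3 CPM in wannabes, higher in rescued than in control Treg cells (1.52 ± 0.24, adjusted p = 0.0108) and lower in control Treg cells than in wannabes (-1.05 ± 0.26, adjusted p = 0.0205). Myc was lower in rescued Treg cells than in wannabes (-0.78 ± 0.21, adjusted p = 0.0312), and Vhl and Arrdc4 were higher (1.03 ± 0.23, adjusted p = 0.0114 and 2.28 ± 0.56, adjusted p = 0.0202). Txnip, whose product limits glucose uptake, was at 819, 1051 and 821 CPM in resting and 447 and 492 CPM in activated wannabes and fell in activated wannabes (-0.93 ± 0.13, adjusted p = 0.00493). Neither Hif1a nor Myc was called between activated and resting wannabes, at 0.03 ± 0.09, adjusted p = 0.857 and 0.18 ± 0.15, adjusted p = 0.431.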

How the data were processed

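Bulk mRNA libraries of doubly sorted cells (SMART-Seq v4, KAPA Hyper Prep, paired reads) were analysed in 5 groups, 13 libraries in all, with groups and replicate numbers taken from the labels. The columns headed GFP were taken as rescued Treg cells from the sorting strategy in the methods and the column names, as no label names them. The female group sizes follow the labels and the methods, and the series' design text gives them the other way round. Per the submitters' processing notes reads were aligned with STAR 2.7.3a to GRCm38, and the paper's methods add local realignment with GATK and counting per gene in R. The deposited values are counts, whole numbers per gene that the authors had not normalized, and the gene annotation and strand setting of the counting are not given in the sources used here. Entries with a blank gene name, 4 in each file, were dropped, with at most 0.00841% of a library's counts, and 24417 genes were kept.

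The counts were fitted in R 4.3.3 with edgeR 4.0.16 (TMM, filterByExpr on the groups, glmQLFit and glmQLFTest, Benjamini-Hochberg adjustment over all genes tested), with 1 fit for the 8 male libraries, 1 for the 5 female libraries and 1 over all 13 for the difference between the changes. DESeq2 1.42.0 was an alternative, with its own adjusted p left missing where it gave none. Every fit was first tested on simulated data. Annotation and exon lengths are from GENCODE M21 on GRCm38, and levels of different genes were compared per kilobase of all annotated exons merged. Ranks and shares between genes depend on these lengths. Samples with the same replicate number did not deviate together (the largest correlation of their deviations was 0.0845), so the replicate number was not used as a block in the main fits. A floor of 3 counts equals 0.0834 to 0.118 CPM and covers counting error only, since reads carry no molecular identifiers. No 2 libraries of a group agreed within sampling noise.

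The 35 members and the further lists of pathway genes, regulators and cell type markers were chosen with earlier results of these data known, and some of the cell type markers are not reported here. All members are accounted for. In each comparison values are given for called members (the 12 with the largest absolute log2 fold change where more were called) and for their isoenzymes, and the other lists are named by the genes called, at most 10 a list by absolute log2 fold change. Alternatives were DESeq2, its size factors or total counts for scaling, no filter, a mean normalized count over 100, only the 2 groups compared, the replicate block, each library left out, another denominator for the members' share and isoenzyme shares without lengths.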

Additional observations from a re-analysis of the deposited data

Results flagged for a closer look

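No member was called in the contrast that compares the change from control to rescued Treg cells with the change from resting to activated wannabes, but 3 of the 12 regulators were, each with a positive difference (the log2 change in Treg cells minus that in wannabes) by edgeR's quasi-likelihood test. For Hif1a the difference between the log2 changes was 0.86 ± 0.18 (SE, adjusted p = 0.0359), with a change of 0.88 ± 0.15 among Treg cells and 0.03 ± 0.09 (adjusted p = 0.857) among wannabes. For Egln3 the difference was 1.54 ± 0.35 (adjusted p = 0.0457), with 1.52 ± 0.24 among Treg cells and -0.01 ± 0.21 (adjusted p = 0.967) among wannabes. For Txnip the difference was 1.29 ± 0.27 (adjusted p = 0.0299), with 0.35 ± 0.18 (adjusted p = 0.392) among Treg cells and -0.93 ± 0.13 among wannabes. Sex, age, treatment and experiment differ between the 2 changes and cannot be told apart from the cell population. The groups held 2 or 3 libraries, too few for a search for outlying libraries.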

How the results depend on the processing

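No member's called difference changed sign under any alternative that was run. Of the single calls, 306 of the values under other settings passed the threshold again and 16 did not, and of those with 1 library left out 224 passed and 105 did not. Members called higher in rescued than in control Treg cells numbered 1 with total counts (1.18% of all genes), 5 with a mean normalized count over 100 (3.08%), 7 with DESeq2 (5.07%) and 4 with only the 2 groups compared (2.58%), against 1.43% in the fit reported above. Members called lower in rescued Treg cells than in wannabes numbered 2 with only the 2 groups compared (2.39% of all genes). In activated wannabes 0 members were called lower with no filter (6.44% of all genes) and 0 with the replicate block (7.25%). In the contrast between the changes DESeq2 called 1 member with a negative difference (2.60% of all genes). With 1 library left out, the members called higher and lower ranged from 0 to 4 and 0 to 2 for rescued against control Treg cells, from 3 to 5 and 6 to 13 for control Treg cells against wannabes, from 3 to 4 and 1 to 6 for rescued Treg cells against wannabes, and from 6 to 20 and 0 to 1 for activated against resting wannabes. In the contrast between the changes they ranged from 0 to 0 and 0 to 2, with 1 called without rescued Treg replicate 2 or 3 and 2 without wannabe replicate 1 or 2. Calls over all genes were not counted in the fits with 1 library left out, so these ranges have no share beside them. A group left with 1 library is assumed to vary like the others. The cause of these shifts was not tested.

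With the replicate number as a block, 3 members were called higher and 2 lower for rescued against control Treg cells (1.70% and 1.16% of all genes). For control Treg cells against wannabes 5 were higher and 14 lower (9.70% and 5.74%), and for rescued Treg cells against wannabes 4 and 4 (9.72% and 3.46%). In activated against resting wannabes 16 were higher and 0 lower (8.29% and 7.25%), and in the contrast 0 and 0 (0.921% and 0.645%). The replicate numbers mark no stated pairing and the samples did not deviate together by number. Over all genes, total counts gave 176 higher and 161 lower calls for rescued against control Treg cells, where TMM gave 214 and 129. Without division by exon length Slc2a3 was 66.2%, 66.4%, 37.9%, 48.8% and 44.0% of its family and Eno3 21.5%, 7.94%, 4.70%, 7.71% and 5.93%, in control Treg cells, rescued Treg cells, wannabes, resting and activated wannabes. The members' share of counts moved by less than its SD with the counts of tested genes as denominator. With 2 libraries in a group, small differences of members with few counts, such as Hk2 and Pfkfb4, may be missed.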

Other observations

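A gene outside the lists, chosen after its values were seen, was high for a gene known as the sperm form of glyceraldehyde 3-phosphate dehydrogenase. Per kilobase of exon, Gapdhs was at 206 ± 9.32 CPM (SD, n = 3) in control Treg cells, 172 ± 37.7 CPM (n = 3) in rescued Treg cells and 130.1 ± 36.97 CPM (n = 2) in wannabes, beside 76.5 ± 8.65, 107 ± 4.69 and 129.7 ± 4.11 CPM per kilobase for Gapdh. In the female experiment Gapdhs was at 106 ± 5.33 CPM per kilobase (n = 3) in resting and 116 ± 6.55 CPM per kilobase (n = 2) in activated wannabes, beside 46.1 ± 6.39 and 77.2 ± 0.603 CPM per kilobase for Gapdh. The libraries of the 2 genes overlapped in male wannabes, and in the other 4 groups every Gapdhs value per kilobase lay above every Gapdh value. The lengths are of all annotated exons merged, 4133 bases in 2 blocks for Gapdh, and the ranking of the 2 genes rests on them. Of the distinct 50-base words of Gapdh transcripts, 25.1% also occur in transcripts of other genes. Exons of the opposite-strand gene Tmem147os overlap 162 bases of Gapdhs exons, 10.1% of their length. Which transcripts gave the reads was not tested.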
